A study of Homo sapiens with 16 samples.

Results

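ATP1B1, ATP1B3 and FXYD3 encode 2 beta subunits and an accessory subunit of the sodium-potassium pump (Na,K-ATPase). They are 3 of the 58051 Ensembl genes counted by RNA-seq in LNCaP cells, a human prostate cancer line of luminal type. They were picked on these same libraries, around the much lower ATP1B3 level after XBP1 knockdown and its near-equal level with the inhibitor. The knockdown values of all 3 genes, and the inhibitor values of ATP1B3, are therefore a description and carry no test. Only the inhibitor values of ATP1B1 and FXYD3 were tested.

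The sodium pump is built from a catalytic alpha subunit and a glycosylated beta subunit, and it moves sodium out of the cell and potassium in at the cost of ATP. The beta subunit must join the alpha subunit in the endoplasmic reticulum (ER) before the pump can travel to the cell surface, and its isoforms also take part in contacts between epithelial cells. FXYD proteins are small membrane proteins that tune the affinity of the pump for its ions. XBP1 mRNA is spliced by the RNase of IRE1α during ER stress, and the spliced form encodes XBP1s, a transcription factor for genes of the secretory pathway.

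Each of the 4 groups held 4 libraries. For the knockdown, either Allstar control siRNA (siCtrl) or an XBP1-specific siRNA (siXBP1) was introduced by reverse transfection 2 days ahead. In the other experiment, untransfected cells received DMSO (Vehicle) or 10 µM of MKC8866, an inhibitor of the IRE1α RNase, for 24 h. The cells of all 16 libraries were at passage 20. After these 2 days or 24 h they received 30 nM thapsigargin for 3 h, an agent that stops ER calcium uptake and so stresses this organelle. No library is therefore free of ER stress. The knockdown used 1 siRNA product, so loss of XBP1 and any other effect of that product cannot be told apart. The experiments also differed in transfection, pretreatment time and controls, and these cannot be told apart from the kind of XBP1s loss.

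Between 28713607 and 34509488 fragments were counted per library. XBP1 itself averaged 383 ± 28.0 CPM (CPM stands for a library's count scaled by TMM to a common total, mean ± SD, n = 4) in siCtrl and 53.2 ± 1.40 in siXBP1. It averaged 503 ± 25.3 in Vehicle and 578 ± 33.9 in MKC8866, where the RNase and not the transcript is the target. DNAJB9, an ER co-chaperone and a known XBP1s target, was lower in both experiments, with a log2 fold change of -2.31 (SE 0.0496, adjusted p = 4.11e-19) after knockdown and -1.87 (SE 0.0578, adjusted p = 9.75e-17) with the inhibitor. All 8 luminal markers, among them KLK3, reached 1 CPM, and their summed level was 3508 to 3641 CPM in siCtrl, 2884 to 3019 in siXBP1, 3499 to 3678 in Vehicle and 3852 to 3978 in MKC8866. The part of this shift in the results below was not tested. None of the 3 basal or 3 immune markers reached 1 CPM. Of the stromal and endothelial markers only COL1A1 (30.6 CPM over all libraries) and VWF (8.52 CPM) did, with COL1A2, PECAM1 and CDH5 at 2 counts or fewer.

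ATP1B1 (ENSG00000143153) lies on the plus strand of chr1:169105697-169132722, ATP1B3 (ENSG00000069849) on the plus strand of chr3:141876124-141926514 and FXYD3 (ENSG00000089356) on the plus strand of chr19:35115879-35124324, all in GRCh38. Their merged exons cover 2962, 2584 and 3334 bases. The promoters of all 3 genes were found in RefSeq (GRCh38.p14), as 250 bases before and 50 after the RefSeq start, which lies inside the Ensembl span of each gene. The 30-base stretches that hold ACGT, the core of the element known to be bound by XBP1s, are printed here because the genes are compared after loss of that factor. The capitals mark ACGT, and all stretches are on the plus strand.
ATP1B3, chr3:141876393-141876422: ACGTgcgtgcgactaaaccttcggattttt
ATP1B3, chr3:141876583-141876612: gcggcgggcggagACGTcaggctcccgcgg
ATP1B1, chr1:169106440-169106469: ccagcacACGTccccagtggcagcgggagc
FXYD3, chr19:35117953-35117982: gacatagtggacgACGTcggggattgctgg

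The ACGT matches began 250 and 47 bases before the start of ATP1B3, 243 before that of ATP1B1 and 34 before that of FXYD3. ACGT, which reads the same on both strands, occurred in 33.2% of 34796 promoters of this length, so a match is a frequent event. The longer TGACGTG, which contains ACGT, was in 1.96% of promoters, CCACG was in 38.0%, and CCAAT followed by 9 bases and CCACG was in 0.0776%. With both strands read, none of these other motifs was found in the 3 promoters. The promoters of ATP1B3 and ATP1B1 held 75.0% and 77.0% G and C and that of FXYD3 54.7%, against a median of 58.7%. The ACGT match is shared by the gene that was far lower after knockdown, the gene that was higher and the gene that was slightly lower, and the match is a description of these windows only.

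ATP1B3, the beta3 subunit, stood at 144, 146, 125 and 136 CPM in the 4 siCtrl libraries and at 20.6, 25.0, 24.1 and 28.4 CPM in the 4 siXBP1 libraries. The groups were far apart, since the highest siXBP1 library was below the lowest siCtrl library. The means were 138 ± 9.53 and 24.5 ± 3.20 CPM (SD, n = 4), a 5.60-fold lower level after knockdown on the fitted scale (log2 fold change -2.49, SE 0.0707). With the inhibitor the 4 Vehicle libraries held 156, 153, 150 and 156 CPM and the 4 MKC8866 libraries 147, 152, 148 and 152 CPM. These groups overlapped, with means of 154 ± 3.15 and 150 ± 2.68 CPM. The log2 fold change was -0.03 (SE 0.0380), and an interval of 2 SE ran from -0.11 to 0.04. Same-numbered libraries of this experiment tended to deviate together. Within these pairs MKC8866 was the lower in 4 of 4, with MKC8866 minus Vehicle from -8.92 to -0.615 CPM. ATP1B3 was well counted in every library, at 596 to 5325 fragments.

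Ranked by log2 fold change after knockdown among 15044 genes with a mean of at least 1 CPM, ATP1B3 was number 5 from the lowest. The genes below it were BHLHA15 (-3.58), a transcription factor of secretory cells and known XBP1s target, XBP1 (-2.85), FUCA2 (-2.75), a secreted fucosidase, and FICD (-2.52), an ER enzyme that modifies the chaperone BiP. DNAJB9 was number 7. With the inhibitor the order was different for the pump gene and the co-chaperone, with ATP1B3 at number 5179 of 15049 and DNAJB9 at number 5. These ranks come from the contrasts that picked ATP1B3 and are given as a description.

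**Figure D1:**
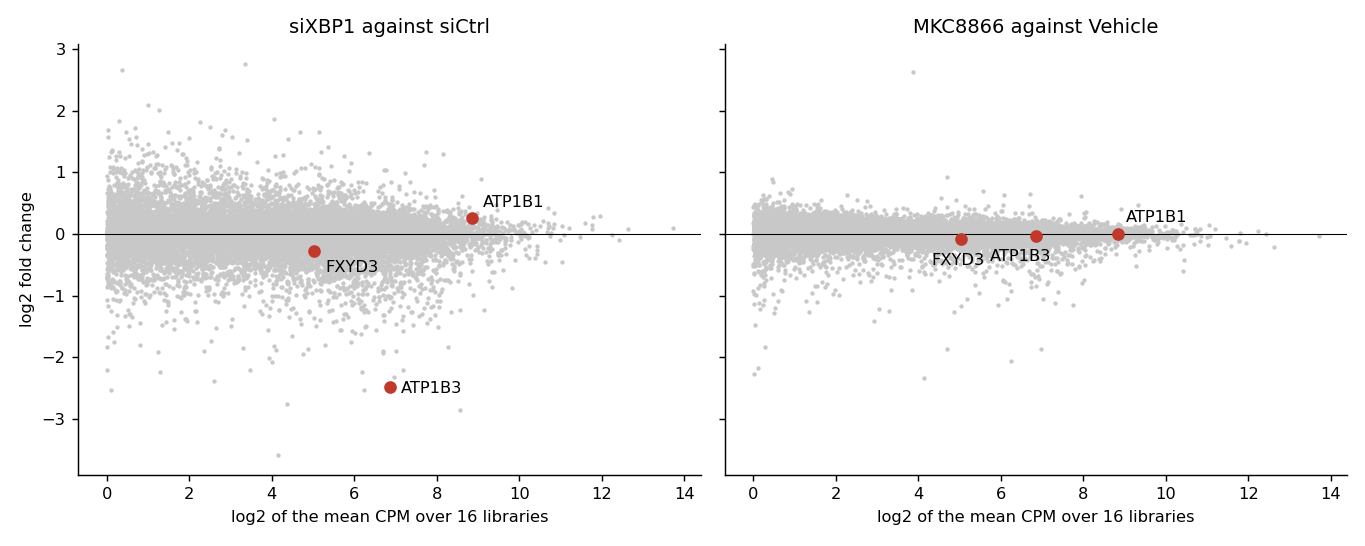
Log2 fold change (vertical) against log2 of the mean CPM over 16 libraries (horizontal), for siXBP1 against siCtrl on the left and MKC8866 against Vehicle on the right. Grey points are genes with a mean of at least 1 CPM and red points the 3 pump genes. ATP1B3 lies at -2.49 on the left, under nearly all genes of its level, and at -0.03 on the right.

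ATP1B1, the beta1 subunit and the more abundant of the beta subunits here, moved the other way. It was at 415, 401, 439 and 417 CPM in siCtrl and at 496, 484, 531 and 492 CPM in siXBP1, so every siXBP1 library was above every siCtrl library. The means were 418 ± 15.8 and 501 ± 20.9 CPM, a 1.20-fold higher level (log2 fold change 0.26, SE 0.0411). In the inhibitor experiment the 4 Vehicle libraries were at 448, 469, 471 and 466 CPM and the 4 MKC8866 libraries at 470, 483, 451 and 446 CPM. These groups overlapped, with means of 463 ± 10.3 and 462 ± 17.2 CPM. The log2 fold change was -0.00 (SE 0.0369, edgeR's quasi-likelihood test, Benjamini-Hochberg adjusted p = 0.993), with an interval of 2 SE from -0.08 to 0.07, so a change as large as that after knockdown lies outside the interval.

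FXYD3, an accessory subunit of epithelial cells, held 35.3, 33.2, 34.6 and 34.0 CPM in siCtrl and 26.1, 28.1, 29.3 and 30.4 CPM in siXBP1. The groups did not overlap, and the means of 34.3 ± 0.899 and 28.5 ± 1.84 CPM gave a 1.20-fold lower level (log2 fold change -0.27, SE 0.0552). With the inhibitor it held 36.1, 35.0, 35.4 and 32.5 CPM in Vehicle and 31.9, 32.9, 34.9 and 31.3 CPM in MKC8866. The libraries overlapped, at means of 34.8 ± 1.55 and 32.7 ± 1.56 CPM. The log2 fold change of -0.08 (SE 0.0538) missed the threshold at an adjusted p of 0.512, and the interval of 2 SE ran from -0.19 to 0.02. Within the same-numbered pairs MKC8866 was the lower in 4 of 4, with MKC8866 minus Vehicle from -4.26 to -0.554 CPM, and in the fit blocked on these pairs the adjusted p was 0.219 (log2 fold change -0.08, SE 0.0420). A fall smaller than that after knockdown lies inside this interval.

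After knockdown all 4 treated libraries lay beyond all 4 controls in each of the 3 genes, lower for ATP1B3 and FXYD3 and higher for ATP1B1. The same was seen for 17.2% of 21021 tested genes in the lower direction and 15.5% in the higher direction, and 34.8% of genes were called at an adjusted p under 0.05. With the inhibitor the groups overlapped in all 3 genes, while 5.29% of 21045 genes separated in the lower direction and 3.98% in the higher direction. Neither tested gene was called, against 4.47% of genes. Lower in all 4 same-numbered pairs, as ATP1B3 and FXYD3 were, were 14.5% of genes, while ATP1B1 was lower in 2 of 4 pairs. With the replicate number as a block neither tested gene was called either, against 7.05% of genes lower and 6.0% higher. By log2 fold change after knockdown, FXYD3 was number 2574 and ATP1B1 number 12692 from the lowest of 15044 genes. A knockdown response of the size of FXYD3 or ATP1B1 was thus common in these cells. The difference of the responses, knockdown minus inhibitor, was -2.45 (SE 0.0825) for ATP1B3, 0.26 (SE 0.0549) for ATP1B1 and -0.18 (SE 0.0750) for FXYD3 on the log2 scale, again as a description, and this difference was called for 23.3% of 20357 genes.

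**Figure D2:**
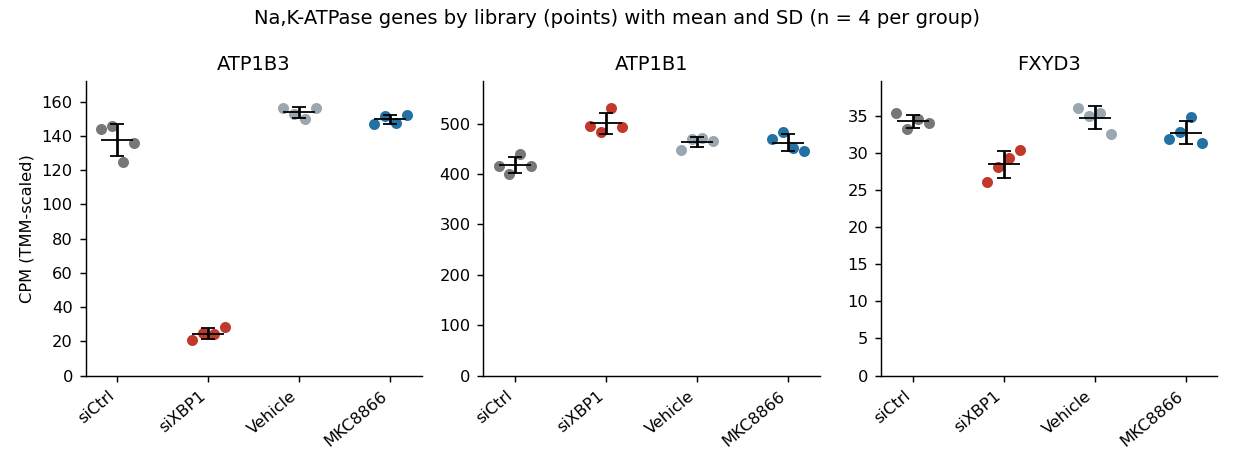
Level of ATP1B3, ATP1B1 and FXYD3 in CPM (vertical, from 0) in the 4 groups. Points are libraries and bars mean ± SD (n = 4). The siXBP1 points of ATP1B3 lie between 20.6 and 28.4 CPM while all other groups lie at 125 CPM and up, and the siXBP1 points of ATP1B1 lie above and those of FXYD3 below their siCtrl points.

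Across the 4 groups ATP1B3 was lowest in siXBP1, then in siCtrl at 125 to 146 CPM, then in MKC8866 at 147 to 152 CPM and Vehicle at 150 to 156 CPM, of which the last pair overlapped. ATP1B1 was lowest in siCtrl, higher in the overlapping MKC8866 and Vehicle groups, and highest in siXBP1 at 484 to 531 CPM, just above the highest MKC8866 library at 483 CPM. FXYD3 was lowest in siXBP1, and its other 3 groups overlapped one another. The siCtrl and Vehicle groups belong to different experiments, so the lower ATP1B1 and ATP1B3 levels in siCtrl cannot be told apart from the handling of that experiment.

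To compare the genes with each other, CPM was divided by the length of the merged exons in kb, which understates a gene whose listed exons are not all used. On this scale ATP1B1 averaged 141 ± 5.34 CPM per kb in siCtrl, ATP1B3 53.2 ± 3.69 and FXYD3 10.3 ± 0.270. In siXBP1 the order kept ATP1B1 first at 169 ± 7.06, while ATP1B3 at 9.49 ± 1.24 and FXYD3 at 8.54 ± 0.553 overlapped from library to library. In Vehicle and MKC8866 the order was also as in siCtrl, with ATP1B3 at 59.5 ± 1.22 and 58.0 ± 1.04 CPM per kb.

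The share of ATP1B3 in the summed ATP1B1 and ATP1B3 level per kb was 28.5%, 29.4%, 24.6% and 27.2% in the 4 siCtrl libraries and 4.54%, 5.59%, 4.95% and 6.19% in the 4 siXBP1 libraries. It was 28.5%, 27.2%, 26.7% and 27.8% in Vehicle and 26.4%, 26.5%, 27.3% and 28.2% in MKC8866. The 3 groups without the knockdown had nearly the same makeup of beta subunit mRNA, at means of 27.4% ± 2.09, 27.6% ± 0.788 and 27.1% ± 0.810 (SD, n = 4), and siXBP1 stood apart at 5.32% ± 0.728. The summed level itself was 192 to 197 CPM per kb in siCtrl and 173 to 189 in siXBP1, so the higher ATP1B1 level came with a slightly lower sum. In the inhibitor experiment the sums overlapped at 212 to 218 and 209 to 222 CPM per kb. ATP1B1, the larger part of the sum, was higher in siXBP1 (169 against 141 CPM per kb) while ATP1B3 was lower (9.49 against 53.2). The makeup differed far more than the total. ATP1B3 was picked for its lower level after knockdown and its near-equal level with the inhibitor. The shares largely restate that choice and are a description.

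**Figure D3:**
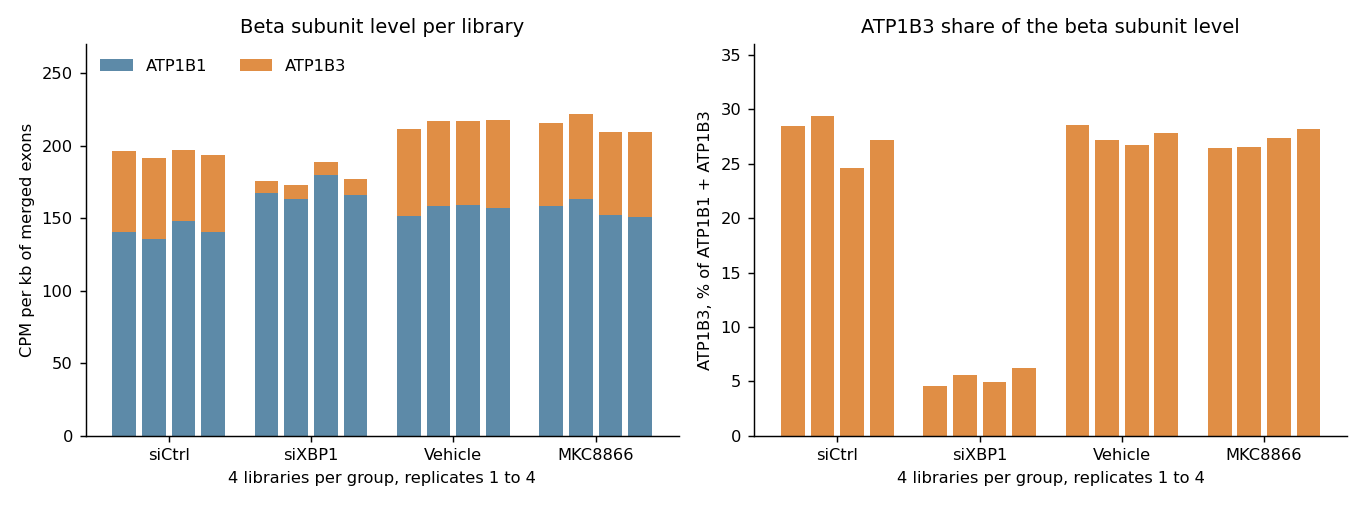
On the left, stacked CPM per kb of merged exons of ATP1B1 (blue) and ATP1B3 (orange) in each of the 16 libraries. On the right, the percent of that sum made up by ATP1B3. The ATP1B3 share is between 24.6% and 29.4% in the 12 siCtrl, Vehicle and MKC8866 libraries and between 4.54% and 6.19% in the 4 siXBP1 libraries.

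The other beta and FXYD genes gave little signal in these cells. ATP1B2 averaged 0.15 CPM over all libraries and FXYD5, an FXYD protein linked to cell adhesion, 0.26 CPM. ATP1B4, FXYD1, FXYD2, FXYD4 and FXYD6 had at most 3 counts in a library and FXYD7 had none. FXYD5 gave a log2 fold change of 0.99 after knockdown, at 3 to 18 counts per library, with an SE of 0.480 and an adjusted p of 0.120. ATP1B2 passed the filter on low counts with the inhibitor only (0.40, SE 0.503, adjusted p = 0.791). The related H,K-ATPase genes ATP4B and ATP12A averaged 0.41 and 0.29 CPM and were not called in either comparison, and ATP4A had at most 6 counts. At these counts a small change in these genes was not detectable, and those that missed the filter were not tested.

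Reads near the members could blur their values in a few places. NME7, on the opposite strand, shares 192 of the 2962 exon bases of ATP1B1 (6.48%), and counting without strand leaves fragments in shared bases uncounted. NME7 gave log2 fold changes of 0.00 (SE 0.0624, adjusted p = 0.984) and -0.02 (SE 0.0656, adjusted p = 0.934), and was not called in either comparison. ATP1B3-AS1 lies within the span of ATP1B3 on the opposite strand, shares none of its exon bases and had 2 to 12 counts. The pseudogene ATP1B3P1 had 19 to 42 counts in siCtrl, 1 to 6 in siXBP1, 23 to 41 in Vehicle and 27 to 38 in MKC8866. Its counts followed those of ATP1B3 at a small fraction of the level, and whether they are fragments of the parent gene was not tested. ATP1B1P1 had at most 8 counts.

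The genes most like each member over the 16 libraries, among 15037 genes with a mean of at least 1 CPM, were found by Pearson correlation of log2 CPM. The 16 points fall in the same 4 groups for every gene, so these values describe likeness and have no test. For ATP1B3 they were TTC8 (r = 0.997), a component of the BBSome at cilia, FUCA2 (r = 0.996) and PPT1 (r = 0.993), a lysosomal thioesterase. All 3 were lower after knockdown, with log2 fold changes of -1.12, -2.75 and -2.23, and had values of -0.04, 0.06 and 0.11 with the inhibitor. PPT1 with the inhibitor had an adjusted p of 0.151, and of 0.00750 with the replicate number as a block. TTC8 shared the pattern of ATP1B3 at a smaller size, since a correlation does not read the size of a change.

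For ATP1B1 the nearest genes were GTF2E2 (r = 0.960), a subunit of the general transcription factor TFIIE, PSPH (r = 0.956), the last enzyme of serine synthesis, and TSPAN3 (r = 0.956), a tetraspanin. They were higher after knockdown by 0.61, 0.38 and 0.38 on the log2 scale. With the inhibitor they ranged from -0.08 to 0.00, -0.01 to 0.05 and -0.04 to -0.00 over the 14 alternative settings given below, and none was called. For FXYD3 they included CREB3L4 (r = 0.918), a transcription factor held in the ER membrane, and EBP (r = 0.912), an enzyme of cholesterol synthesis. Their knockdown values were -0.60 and -0.42, each larger in size than that of FXYD3. With the inhibitor CREB3L4 ranged from -0.17 to -0.11 and EBP from -0.14 to -0.09 over the same 14 settings. Both were thus lower in every setting, called in some and not in others.

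Genes that work around the pump were read from lists of the membrane skeleton that anchors it, sodium-coupled transporters that spend its gradient, potassium exit pathways that return potassium, kinases and ligases that regulate ion transport, and the N-glycosylation and folding of glycoproteins such as the beta subunits. The median log2 fold change of all tested genes was 0.00 in both comparisons. Over all tested genes, the share called was 18.2% lower and 16.5% higher after knockdown and 3.11% lower and 1.36% higher with the inhibitor. Genes named for small counts alone were chosen after their values were seen. The lists themselves were chosen with earlier results of these data known, so the counts called in them are a description.

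Of 9 membrane skeleton genes, 4 rose and 1 fell after knockdown (median 0.08) and none was called with the inhibitor (median 0.05). The risers were SPTBN1, a beta spectrin, by 0.67 (SE 0.109, adjusted p = 3.49e-05), and the adducins ADD2 by 0.52 (SE 0.0981, adjusted p = 0.000195), ADD3 by 0.35 and ADD1 by 0.19. SPTAN1, the alpha spectrin that pairs with the beta spectrins, had -0.18. SPTBN1 and ADD2 were low, at 4.00 ± 0.228 and 4.47 ± 0.206 CPM in siCtrl. With the block 1 gene of the list was called higher with the inhibitor.

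Of the 15 tested of 17 sodium-coupled transporters, 8 fell and 5 rose after knockdown (median -0.12). With the inhibitor none fell and 2 rose (median 0.06), or 6 with the block. SLC5A6, the sodium-coupled carrier of biotin and pantothenate, went from 82.8 ± 1.80 CPM in siCtrl to 44.9 ± 2.20 in siXBP1 (log2 fold change -0.88, SE 0.0457, adjusted p = 8.06e-13) and had -0.01 (adjusted p = 0.934) with the inhibitor. SLC1A4, a neutral amino acid carrier, fell after knockdown (-0.75, SE 0.0533, adjusted p = 1.64e-10) and rose with the inhibitor (0.31, SE 0.0548, adjusted p = 0.000493). SLC20A2, a sodium-phosphate carrier, also fell in the first (-0.32, SE 0.0537) and rose in the second (0.22, SE 0.0561, adjusted p = 0.0199), the rise being lost without Vehicle replicate 1 (adjusted p = 0.0903) or 4 (0.0868) or MKC8866 replicate 1 (0.0672) or 4 (0.0954). Carriers that use the sodium gradient thus moved in both directions after knockdown.

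Of the 9 tested of 10 potassium exit genes, 4 rose and 2 fell after knockdown (median 0.20) and none was called with the inhibitor (median 0.08), or 2 with the block. The risers included the potassium channel genes KCNK5 (0.82, SE 0.128, adjusted p = 2.34e-05), KCNH2 (0.48, SE 0.0786, adjusted p = 3.93e-05) and KCNQ1 (0.37). The genes that fell were SLC12A7 (-0.35), a potassium-chloride cotransporter, and the channel gene KCNMA1 (-0.17). KCNK5 was weakly expressed, at 59 to 114 counts per library.

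Of 9 kinases and ligases, 3 rose and 2 fell after knockdown (median -0.00) and none was called with the inhibitor (median 0.06), or 1 with the block. SIK1, a kinase tied to intracellular sodium and pump activity, rose by 0.66 (SE 0.105, adjusted p = 2.84e-05) and NEDD4, a ubiquitin ligase of membrane transporters, by 0.59 (SE 0.0511, adjusted p = 4.62e-09). SGK3 was the other riser (0.35), and STK39 (-0.35) and OXSR1 (-0.17), kinases of the WNK pathway that act on chloride cotransporters, fell.

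In the N-glycosylation list, chosen like the others with earlier results known, more genes were called lower than higher in both experiments. Of its 16 genes, 9 fell and 3 rose after knockdown (median -0.26), and 10 fell and none rose with the inhibitor (median -0.19), or 14 lower with the block. OSTC and MAGT1, subunits of the oligosaccharyltransferase, fell by 0.96 (SE 0.0582, adjusted p = 1.06e-11) and fell by 0.87 (SE 0.0441, adjusted p = 5.53e-13) on the log2 scale after knockdown. With the inhibitor OSTC fell by 0.61 (SE 0.0488, adjusted p = 4.44e-09) and MAGT1 fell by 0.49 (SE 0.0434, adjusted p = 2.80e-08). KRTCAP2, another subunit, had -0.63 (SE 0.0842, adjusted p = 1.33e-05) with the inhibitor and -0.26 (SE 0.138, adjusted p = 0.154) after knockdown. Its knockdown value rested on single libraries, with -0.39 (adjusted p = 0.0124) without siCtrl replicate 4, -0.14 (adjusted p = 0.503) without siCtrl replicate 1 and -0.16 (adjusted p = 0.404) without siXBP1 replicate 3. The 3 that rose after knockdown were HSPA5, which encodes the chaperone BiP (0.30), and the oligosaccharyltransferase subunits TUSC3 (0.17) and STT3B (0.14), of which TUSC3 was not called with the block (adjusted p = 0.0632). In the same inhibitor libraries the groups of ATP1B3 overlapped, but ATP1B3 was picked for its near-equal level there, so this is a description.

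**Figure D4:**
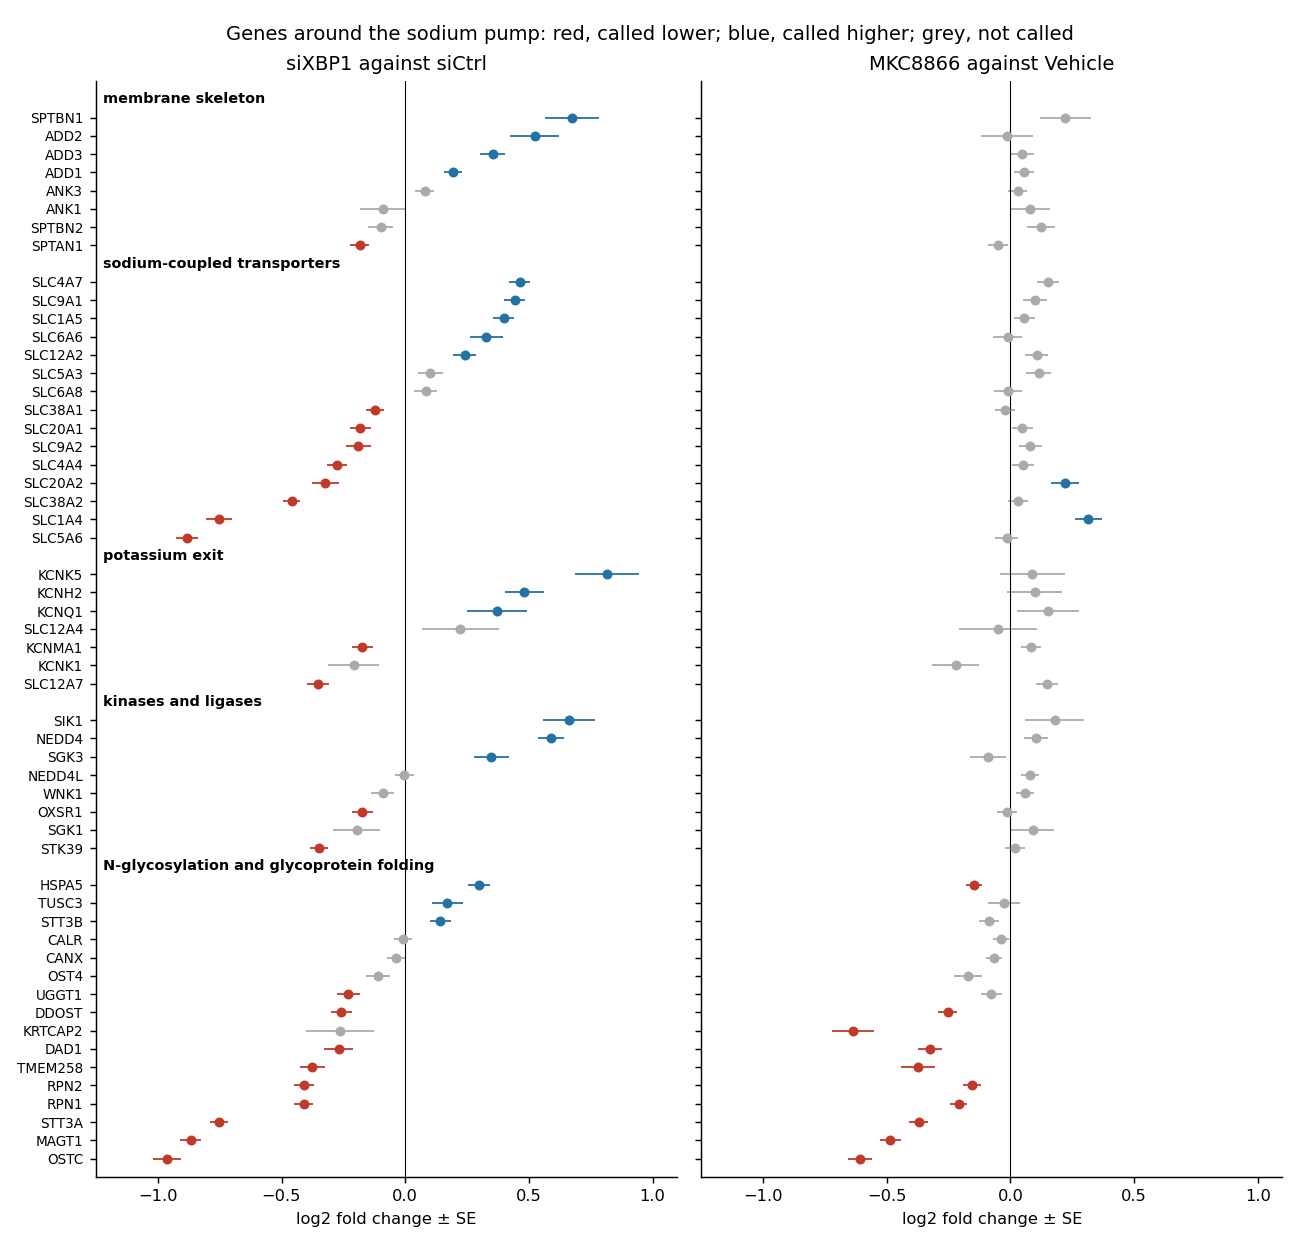
Log2 fold change ± SE (horizontal) of genes of the 5 lists with a mean of at least 1 CPM, for siXBP1 against siCtrl on the left and MKC8866 against Vehicle on the right. Red genes were called lower, blue genes higher and grey genes not called at an adjusted p under 0.05. The first 4 lists show calls in both directions on the left and 2 on the right, and the N-glycosylation list shows red genes in both.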

How the data were processed

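Stranded libraries of LNCaP cells were sequenced as read pairs. The authors aligned them to hg38 with STAR 2.5.2a and summarised them per Ensembl gene in featureCounts 1.5.0, without strand, multimapping fragments or fragments overlapping several genes. The deposited values are raw counts per gene, and 56948 of 58051 genes were matched to a symbol. Depth per library was 28713607 to 34509488 fragments (median 30743136), with biological coefficients of variation of 5.40% (knockdown) and 4.97% (inhibitor).

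Treated and control libraries (4 against 4) were compared per experiment in R 4.3.3 with edgeR 4.0.16 (TMM scaling, quasi-likelihood F test, two-sided) after keeping genes that exceeded 5 counts in 1 or more libraries of both groups. Calls needed a Benjamini-Hochberg adjusted p below 0.05 over all tested genes. The difference of responses was fitted on all 16 libraries. SE came from the log2 fold change and F. Scripts were tested on simulated data. The labels do not say that replicates are separate cultures, so p-values set a group difference against the spread between these libraries only.

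The members and gene lists were chosen with earlier results of these data known. Named genes are the members, their beta, FXYD and H,K-ATPase relatives, overlapping genes, the 3 genes nearest to each member by correlation and, per list and comparison, the 2 called genes that changed most, given 1 CPM or more on average and groups without overlap. The alpha subunit genes and a few other genes that fall under these rules are not reported here. Alternatives were DESeq2 1.42.0, its size factors in edgeR, other count filters, all 16 libraries in 1 fit, a replicate block, and each library left out. Same-numbered libraries tended to deviate together in the inhibitor experiment (r of 0.102 to 0.379 over 15037 genes) and not in the knockdown experiment (0.001 to 0.068). Differently numbered libraries gave -0.252 to 0.159 with the inhibitor (mean -0.077, against 0.230 for the same number) and -0.152 to 0.148 with the knockdown. The inhibitor ranges overlapped, since Vehicle replicate 3 had 0.159 with MKC8866 replicate 1 and 0.102 with MKC8866 replicate 3.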

Additional observations from a re-analysis of the deposited data

Results flagged for a closer look

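In 7 of 116 groups of 4 libraries, 1 library stood apart from the other 3, where chance gives about 1 in 20. No group of ATP1B1, ATP1B3 or FXYD3 was among them. They were siCtrl replicate 3 for NME7 (26.1 CPM, low) and SPTBN1 (4.33 CPM, high), Vehicle replicate 3 for ADD2 (3.70 CPM, low), MKC8866 replicate 3 for KCNK5 (2.99 CPM, high), siXBP1 replicate 3 for SIK1 (5.83 CPM, low) and GTF2E2 (70.9 CPM, high), and MKC8866 replicate 4 for PSPH (117 CPM, low). All of these libraries but that of PSPH were replicate 3 of their group, and the reason was not tested.

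The responses to knockdown and inhibitor differed for 12 of the check and list genes named by rule. This was tested as an interaction in edgeR over all 16 libraries, with 23.3% of 20357 genes called. The list genes were named for a large called change in the knockdown or the inhibitor comparison, and XBP1 is the siRNA target. A difference was thus likely from the choice, and the 12 genes cannot be set against that share. KCNH2 and KRTCAP2, named by the same rule, were not among them. As log2 fold changes, knockdown minus inhibitor, the differences were -3.05 for XBP1, -0.44 for DNAJB9, 0.45 for SPTBN1 (adjusted p = 0.0237), 0.54 for ADD2, -0.86 for SLC5A6, -1.06 for SLC1A4, -0.54 for SLC20A2, 0.73 for KCNK5, 0.49 for SIK1 (adjusted p = 0.0229), 0.49 for NEDD4, -0.35 for OSTC and -0.38 for MAGT1. The SPTBN1 difference missed the threshold without siXBP1 replicate 1 (0.38, adjusted p = 0.0637), siXBP1 replicate 2 (0.42, adjusted p = 0.0526) or MKC8866 replicate 4 (0.40, adjusted p = 0.0566). The SIK1 difference missed it without MKC8866 replicate 3 (0.45, adjusted p = 0.0501), Vehicle replicate 3 (0.45, adjusted p = 0.0543) or Vehicle replicate 4 (0.45, adjusted p = 0.0536).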

How the results depend on the processing

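The values of the 3 members kept their direction under all 14 alternatives, except ATP1B1 with the inhibitor, which lay on either side of 0, and the tested values kept their side of the threshold. The alternatives were DESeq2, its size factors, other filters, all libraries in 1 fit, the replicate block and each library left out. After knockdown the log2 fold change of ATP1B3 ranged from -2.56 to -2.40, of ATP1B1 from 0.23 to 0.29 and of FXYD3 from -0.30 to -0.22. With the inhibitor ATP1B3 ranged from -0.05 to -0.03, ATP1B1 from -0.03 to 0.01 (adjusted p 0.763 to 1.00) and FXYD3 from -0.12 to -0.07 (adjusted p 0.219 to 0.707). Calls over all genes ranged from 6537 to 7555 after knockdown, against 7311, and from 711 to 1317 with the inhibitor, against 941, apart from the replicate block, which gave 2746. The block changed no call of a member. On CPM not divided by length, the ATP1B3 share of the beta sum was 24.8% in siCtrl, 4.67% in siXBP1, 24.9% in Vehicle and 24.5% in MKC8866. Depth limits the genes under 1 CPM, where small changes could not be read.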
